A study of Mus musculus with 4 samples.

Results

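The 45 genes described here encode the subunits, activators and inhibitor of the mouse proteasome, and they were followed through germ cell stages, somatic cell types and genotypes in testes of postnatal day 15 (P15). Members were all genes whose symbol begins with Psma, Psmb, Psmc, Psmd, Psme or Psmf followed by a number, with or without a final a or b. This gave 45 of the 32285 genes of the count tables. They comprised 8 alpha ring genes (*Psma1* to *Psma8*), 7 constitutive beta ring genes (*Psmb1* to *Psmb7*), 4 inducible or thymic beta genes (*Psmb8* to *Psmb11*), 6 ATPases (*Psmc1* to *Psmc6*), 14 non-ATPase genes of the regulatory particle and its assembly (*Psmd1* to *Psmd14*), 5 activators (*Psme1*, *Psme2*, *Psme2b*, *Psme3* and *Psme4*) and the inhibitor *Psmf1*.

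The proteasome degrades ubiquitin-tagged proteins inside a barrel of stacked alpha and beta rings. A regulatory particle at its end binds, unfolds and feeds in the substrate, and alternative activators can dock in its place. Some of the beta subunits cut the protein, and each of these has an interferon-inducible counterpart that forms the immunoproteasome. In spermatocytes a testis-specific alpha subunit, PSMA8, can take the position of PSMA7, and it is known to be required for spermatocytes to pass through meiosis. Proteasomes with PSMA8 and with the activator PSME4 (PA200) are known from the mouse testis.

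Single-cell RNA-seq was performed on 4 mice of strain C57BL/6N, 2 wild-type and 2 *Meioc*-null, with 1 testis per pup. The null mice carried *Meioc* tm1.1Dpc, a null allele of a gene that germ cells need to leave the mitotic programme and proceed through meiotic prophase. All mice of both genotypes were also heterozygous for *Hspa2* tm1Dix and homozygous for a *ROSA26* tdTomato reporter whose floxed stop was intact. Replicates 1 and 2 were separate pups, and each number marked a batch with 1 pup of each genotype.

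Barcodes with more than 1000 detected genes and less than 10% mitochondrial UMIs (unique molecular identifiers, 1 per captured transcript) numbered 6334 and 8494 in the wild-type libraries and 7550 and 7214 in the *Meioc*-null libraries. After removal of likely doublets, 26225 of 29592 remained, with a median of 11698 to 14446 UMIs per cell and library. Any pair of libraries shared 7 to 16 of these barcodes. *Meioc* itself was counted at 293 and 291 counts per 1000000 UMIs (CPM) in wild-type germ cells and at 342 and 282 CPM in *Meioc*-null germ cells. Within clusters the genotypes differed in both directions, with 126 and 127 against 92.2 and 91.2 CPM in cluster 3 and 506 and 498 against 787 and 816 CPM in cluster 8, so these 3′ counts are no check of the genotype. The sources used here do not say which part of the transcript the allele lacks.

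Wild-type cells were clustered without the proteasome genes, and each cell was then assigned by a vote of the wild-type cells closest to it. Germ cells fell into 10 clusters, numbered by stage. Cluster 1 was undifferentiated spermatogonia-like and clusters 2 to 5 were differentiating spermatogonia-like. Cluster 6, led by *Stra8* and *Pparg*, stayed unnamed because its differentiating and early spermatocyte scores were too close. Clusters 7 to 9 were early spermatocyte-like, led in turn by *Stxbp5l* and *Rad21l*, by *Ccnb3* and *Spo11*, and by *A830018L16Rik* and *Rad51ap2*. Cluster 10 was pachytene spermatocyte-like and held 260 and 304 wild-type cells and 0 cells of both *Meioc*-null libraries, which had been placed by wild-type cells alone. Somatic cells were Sertoli-like, Leydig-like, peritubular myoid-like and interstitial fibroblast-like. A further somatic-level cluster stayed unnamed. Its median was 2546 to 3363 UMIs, its germ cell markers summed to 1139 to 1976 CPM, and its macrophage markers summed to 3385 CPM in *Meioc*-null replicate 2 against 8.55 to 85.4 CPM in the other libraries.

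Levels are given as CPM of all UMIs of the cells of a cluster in a library. One UMI is counted per captured transcript whatever its length, and levels of different genes are set side by side on that basis. Differences between genes in capture or mapping were not corrected. Clusters come from the same cells as the levels, so levels by stage are described without a test.

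*Psma8* and *Psma7* exchanged places along the germ lineage, with a gap between the loss of one and the gain of the other. *Psma8* (ENSMUSG00000036743, GRCm38 chromosome 18, 14706151 to 14762301, + strand) was measured at 702 and 670 CPM in the wild-type pachytene-like cluster 10, its peak. *Psma7* (ENSMUSG00000027566, chromosome 2, 180036374 to 180042433, − strand) was measured there at 43.1 and 35.5 CPM. In undifferentiated cells the order was the opposite, with *Psma7* at 429 and 473 CPM and *Psma8* at 43.1 and 40.9 CPM in the wild-type libraries.

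*Psma8* was not restricted to spermatocytes. In undifferentiated cluster 1 the *Meioc*-null libraries gave 40.8 and 42.2 CPM, and all 4 libraries lay within 40.8 to 43.1 CPM. The level then declined to 19.3 and 15.4 CPM in wild-type cluster 4, which was 2.42-fold below cluster 1. It stood at 30.3 and 20.4 CPM in cluster 5 and at 30.0 and 27.0 CPM in cluster 6 of the wild type, where the ranges overlapped. The trough came in cluster 7, the first early spermatocyte-like cluster, at 10.5 and 7.02 CPM. From there *Psma8* rose to 69.3 and 56.5 CPM in cluster 8, to 235 and 215 CPM in cluster 9 (3.58-fold above cluster 8), and a further 3.05-fold to cluster 10. The mean of cluster 10 was 16.3-fold above that of cluster 1.

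Somatic cells set the background for these values. *Psma8* was counted at 9.92 and 4.75 CPM in wild-type peritubular myoid-like cells, while the *Meioc*-null ones gave 2.39 and 3.06 CPM. The Sertoli-like, Leydig-like and fibroblast-like cells lay between 1.56 and 8.85 CPM. In Sertoli-like, myoid-like and fibroblast-like cells both wild-type libraries were above both *Meioc*-null libraries, and the *Meioc*-null libraries held no pachytene-like cells; the part of free RNA was not tested. The unnamed somatic-level cluster gave 46.5, 53.9, 36.4 and 14 CPM (both wild-type libraries first), beside the germ cell markers noted above.

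The share of cells with a *Psma8* UMI told the same stages apart. It was 67.1% and 66.5% in wild-type cluster 1 at medians of 28491 and 27285 UMIs, and 95.8% and 99.3% in cluster 10. In wild-type cluster 7 it was 11.5% and 6.94% at medians of 10597 and 10105 UMIs. Myoid-like cells of the same libraries gave 9.87% and 5.78% at 9763 and 10068.5 UMIs, and the exact 95% binomial intervals of the 2 cell types overlapped in each library (8.73 to 14.8% against 7.53 to 12.7%, and 5.05 to 9.27% against 3.98 to 8.06%). In *Meioc*-null cluster 7 the share was 9.85% and 9.36% (7.85 to 12.2% and 7.17 to 12.0%), above the 2.31% and 4.64% of myoid-like cells (1.35 to 3.67% and 3.15 to 6.56%). With every cell thinned to 2000 UMIs, leaving out at most 16 shallower cells per library in the groups named here, wild-type cluster 1 gave 6.38% and 6.46%, cluster 10 gave 75.4% and 68.4%, and wild-type cluster 7 gave 2.44% and 2.31% beside 1.98% and 0.361% in myoid-like cells, with replicate 2 the further apart. The *Meioc*-null libraries gave 2.30% and 1.15% in cluster 7 and 0.546% and 0.619% in myoid-like cells.

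*Psma7* was flat through the spermatogonial clusters and then fell. Clusters 1 to 5 lay between 373 and 527 CPM over all 4 libraries. Wild-type cluster 6 gave 213 and 216 CPM, cluster 7 gave 88.4 and 68.0 CPM, and the trough of 28.1 and 20.8 CPM came in cluster 8. The mean of cluster 8 was 17.8-fold below that of cluster 5. Sertoli-like cells had the highest level of all, 1296 and 1066 CPM in the wild type, which was 2.37-fold above the germ cell peak. Myoid-like, fibroblast-like and Leydig-like cells ranged from 285 to 549 CPM.

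**Figure D1:**
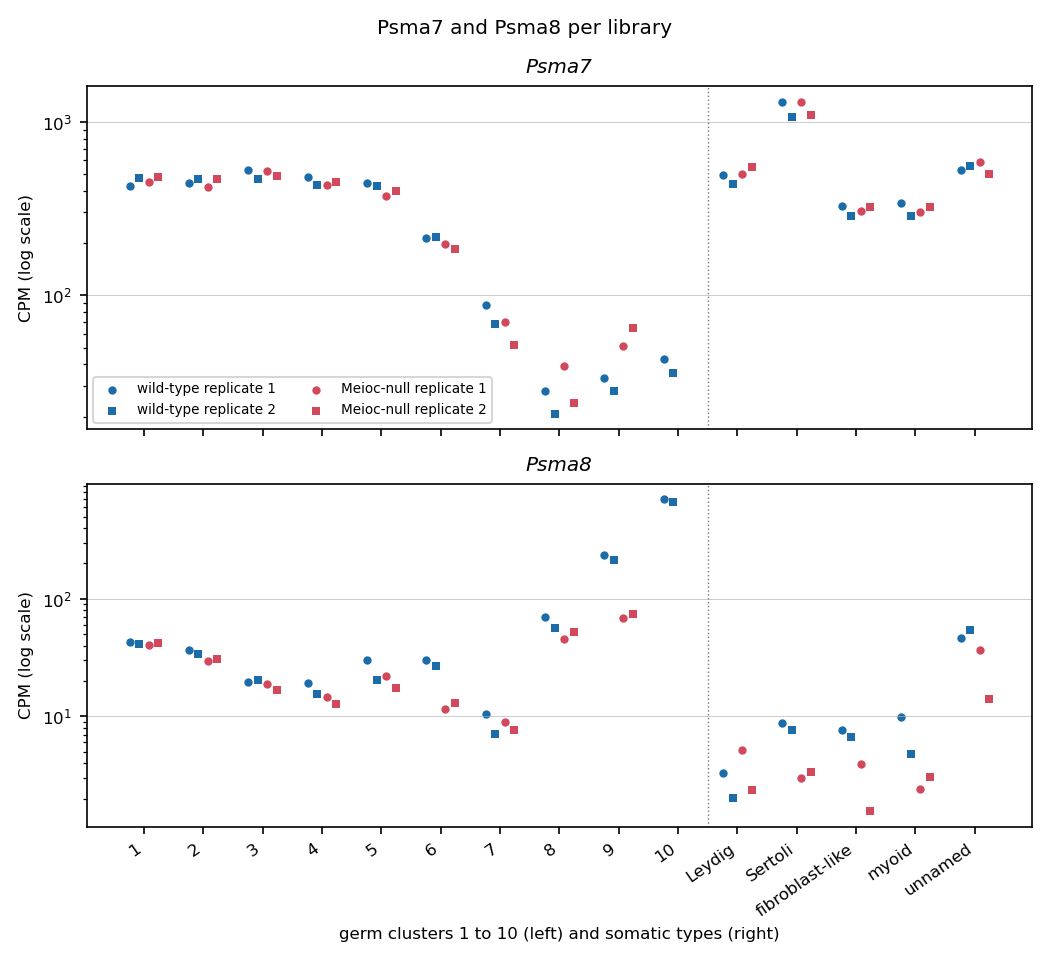
CPM of *Psma7* (top) and *Psma8* (bottom) on a log axis in germ clusters 1 to 10 and in somatic types, 1 point per library, wild type in blue and *Meioc*-null in red, replicate 1 as circles and replicate 2 as squares. *Psma7* drops from cluster 6 on to its trough of 28.1 and 20.8 CPM in wild-type cluster 8, while *Psma8* passes its own trough in cluster 7 and reaches 702 and 670 CPM in cluster 10.

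Because the trough of *Psma8* and the fall of *Psma7* coincided, transcripts for this alpha position were scarce in clusters 7 and 8. *Psma7* and *Psma8* together made up 472 and 514 CPM in wild-type cluster 1, 98.9 and 75.0 CPM in cluster 7, 97.4 and 77.3 CPM in cluster 8 and 745 and 706 CPM in cluster 10. The mean of cluster 7 was 5.67-fold below cluster 1, and that of cluster 10 was 8.30-fold above cluster 8. The other alpha genes varied less. *Psma4*, *Psma2* and *Psma3* also had their troughs in cluster 7, with peak-to-trough ratios of 4.29, 3.70 and 2.75, and *Psma5* had its trough in cluster 8 (3.20). *Psma6* and *Psma1* were the flattest, with ratios of 1.44 and 1.43, against 20.3 for *Psma7*.

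*Psma8* UMIs as a share of *Psma7* plus *Psma8* gave a measure that does not depend on depth. Wild-type cluster 1 had a share of 9.13% and 7.96%, and cluster 7 one of 10.6% and 9.36%. Cluster 8 had 71.1% and 73.1%, cluster 9 had 87.6% and 88.5%, and cluster 10 had 94.2% and 95%. The switch in transcript share therefore fell between clusters 7 and 8, and the proteins were not measured. Sertoli-like, Leydig-like, myoid-like and fibroblast-like cells had shares of 0.229% to 2.83%.

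**Figure D2:**
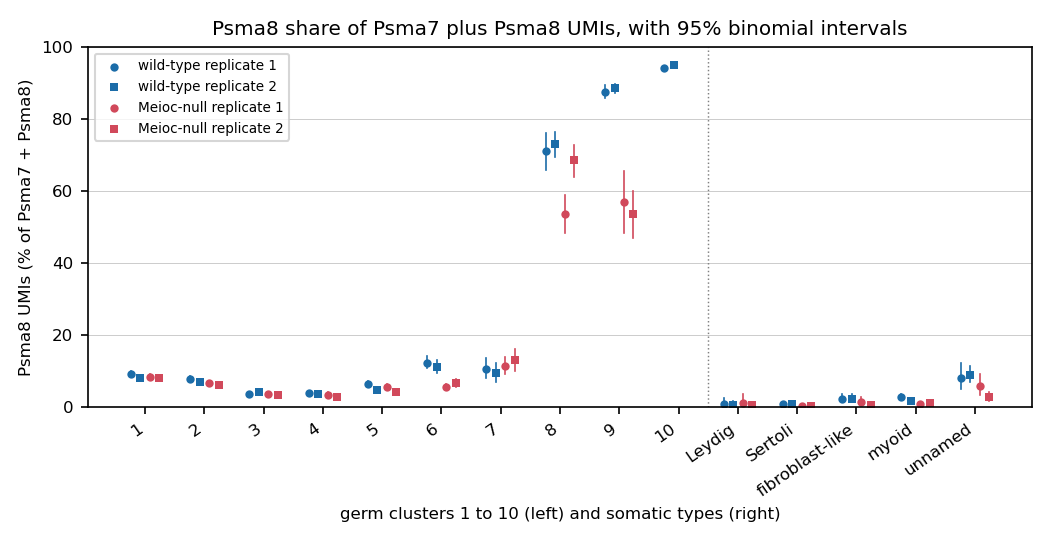
*Psma8* UMIs as a percentage of *Psma7* plus *Psma8* UMIs in germ clusters 1 to 10 and in somatic types, 1 point per library with its exact 95% binomial interval as a line. Wild-type libraries (blue) pass from 10.6% and 9.36% in cluster 7 to 71.1% and 73.1% in cluster 8, and *Meioc*-null libraries (red) reach 57.0% and 53.5% in cluster 9.

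Among all 6177 other genes over 50 CPM in some wild-type germ cluster, those whose levels followed *Psma8* most closely over the 10 clusters were *Chrac1* (Pearson r = 0.990 on log2(CPM + 1)), *B9d1* (0.985), *Dynlt1f* (0.984), *Fam178b* (0.982), *Piwil2* (0.976) and *Tktl2* (0.976), followed by *Cfap298*, *1700019A02Rik*, *B3galnt1* and *Trafd1* at 0.963 to 0.966. *Chrac1* rose from 37.6 CPM in cluster 7 to 314 CPM in cluster 10, and *Piwil2*, a PIWI protein of the piRNA pathway, from 62.8 to 429 CPM. Among the proteasome genes the nearest were *Psma3* (0.84), *Psmc2* (0.74) and *Psmd9* (0.74), and the most opposed was *Psmd11* (−0.86). These points share their libraries, so the coefficients are descriptions over 10 clusters.

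The proteasome genes as a whole dipped around meiotic entry. Summed over the 45 members, wild-type cells held 10398 and 10731 CPM in cluster 1 and 10983 and 11021 CPM in cluster 2. Clusters 7 and 8 held 6633 and 5961 CPM and 6295 and 5854 CPM, and cluster 10 held 9331 and 8831 CPM. Cluster 2 was 1.81-fold and cluster 10 was 1.5-fold above cluster 8. The core rings moved more than the regulatory particle: without *Psma8* they had means of 6101 CPM in cluster 2 and 2541 CPM in cluster 8, against 4246 and 3223 CPM for the ATPase and non-ATPase genes. A CPM is a fraction of the transcripts counted, so these sums do not give amounts per cell.

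Of the 45 members, 42 exceeded 10 CPM in some wild-type germ cluster, and the median of their log2 ranges over the 10 clusters was 1.62. Peaks lay mostly in spermatogonia, with 8 members highest in cluster 1, 10 in cluster 2 and 5 in cluster 3. Troughs lay mostly in early spermatocytes, with 11 members lowest in cluster 7 and 9 in cluster 8. Only *Psma3*, *Psma8*, *Psmc2* and *Psmd9* peaked in cluster 10.

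**Figure D3:**
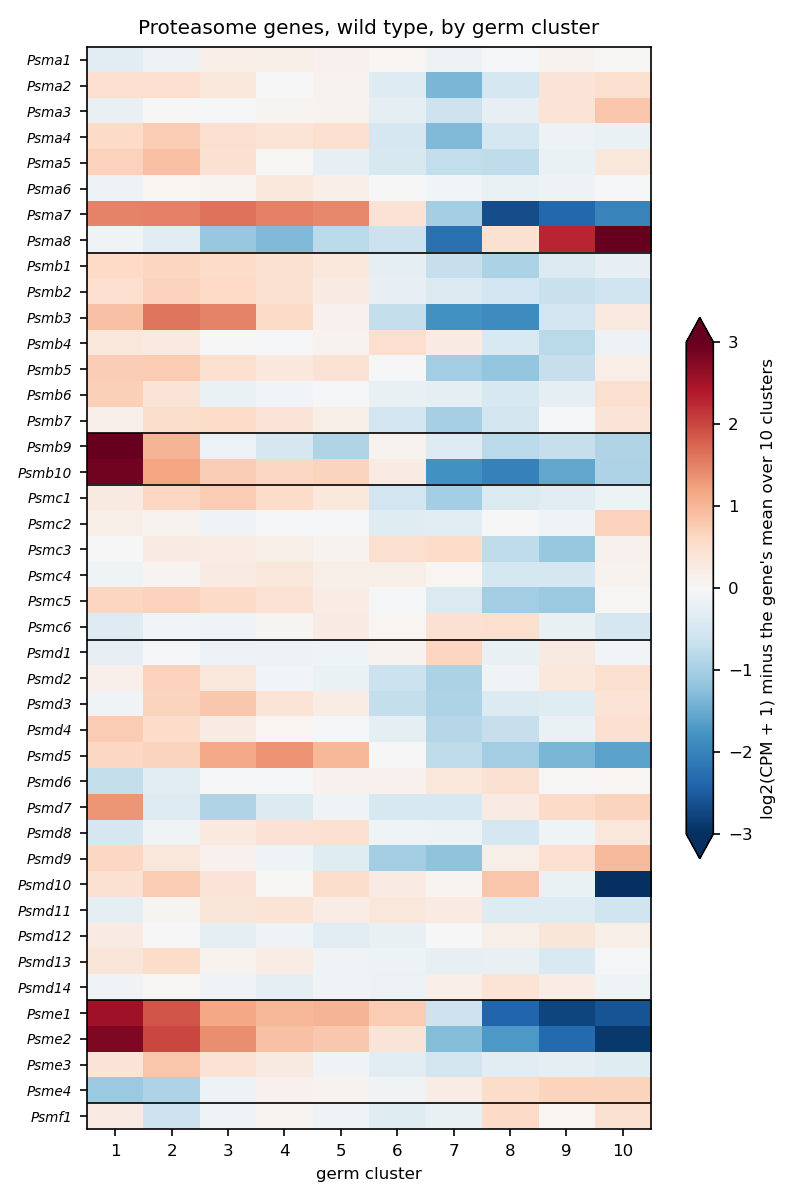
Wild-type log2(CPM + 1) of the 42 proteasome genes over 10 CPM in some germ cluster (rows, grouped by role with black lines) in germ clusters 1 to 10 (columns), each gene minus its own mean over the clusters, so that red is above and blue below that mean. *Psma7*, *Psmb10*, *Psme1* and *Psme2* are blue from cluster 7 on, *Psmb3* is blue in clusters 6 to 9, *Psma8* is deepest red in clusters 9 and 10, and *Psmd10* is blue in cluster 10.

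The widest member of each role group differed in when it changed. Among the constitutive beta genes it was *Psmb3*, a structural subunit without its own cutting site, which went from 549 and 545 CPM in wild-type cluster 2 to 53.5 and 40.9 CPM in cluster 8 and back to 231 and 207 CPM in cluster 10. Among the ATPases, which unfold the substrate, it was *Psmc5*, with a peak-to-trough ratio of 3.53 between clusters 2 and 9. The inhibitor *Psmf1* (PI31) was low throughout and highest in cluster 8, at 35.9 and 37.0 CPM.

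*Psmd10*, which encodes the assembly chaperone gankyrin, was the widest of the non-ATPase group. It lies on the X chromosome (140948429 to 140956728, − strand), whose genes are known to be silenced in pachytene spermatocytes. It was counted at 59.1 and 52.9 CPM in wild-type cluster 8, at 22.6 and 31.8 CPM in cluster 9 and at 2.23 and 3.15 CPM in cluster 10, which made cluster 8 20.8-fold higher than cluster 10. *Psmd5*, another assembly chaperone, fell 8.10-fold from its peak in cluster 4 to cluster 10, whereas *Psmd9*, the third of these chaperones, rose 4.66-fold from cluster 7 to cluster 10.

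The activators went in opposite directions. *Psme1* and *Psme2* encode the 2 subunits of PA28, an interferon-inducible cap that opens the barrel without ubiquitin. *Psme1* was counted at 309 and 327 CPM in wild-type cluster 1 and at 7.67 and 6.64 CPM in cluster 9, a 44.4-fold range. *Psme2* was counted at 277 and 329 CPM in cluster 1 and at 5.46 and 4.31 CPM in cluster 10, a 62.1-fold range. *Psme4* (PA200), the activator known for its role in spermatogenesis, instead rose 3.50-fold from 39.8 and 38.2 CPM in cluster 1 to 130 and 142 CPM in cluster 9. *Psme3*, which forms a nuclear PA28 ring, stayed between its peak of 132 CPM in cluster 2 and its trough of 49.7 CPM in cluster 7.

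Among the inducible beta genes, *Psmb10* was the one counted in germ cells at a substantial level. It was measured at 143 and 161 CPM in the wild type against 138 and 168 CPM without *Meioc* in cluster 1, fell to 39.7 and 50.7 CPM in wild-type cluster 2 and to 4.33 and 3.69 CPM in cluster 8. The mean of cluster 1 was 37.9-fold above that of cluster 8. *Psmb9* was at 15.3 to 18.8 CPM in cluster 1 and at most 3.50 CPM in every later germ cluster. *Psmb8* did not exceed 2.76 CPM in any germ cluster. The thymic subunit *Psmb11* stayed under 1 CPM in every cluster, and *Psme2b*, a near copy of *Psme2* whose counts are therefore uncertain, stayed under 4 CPM.

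**Figure D4:**
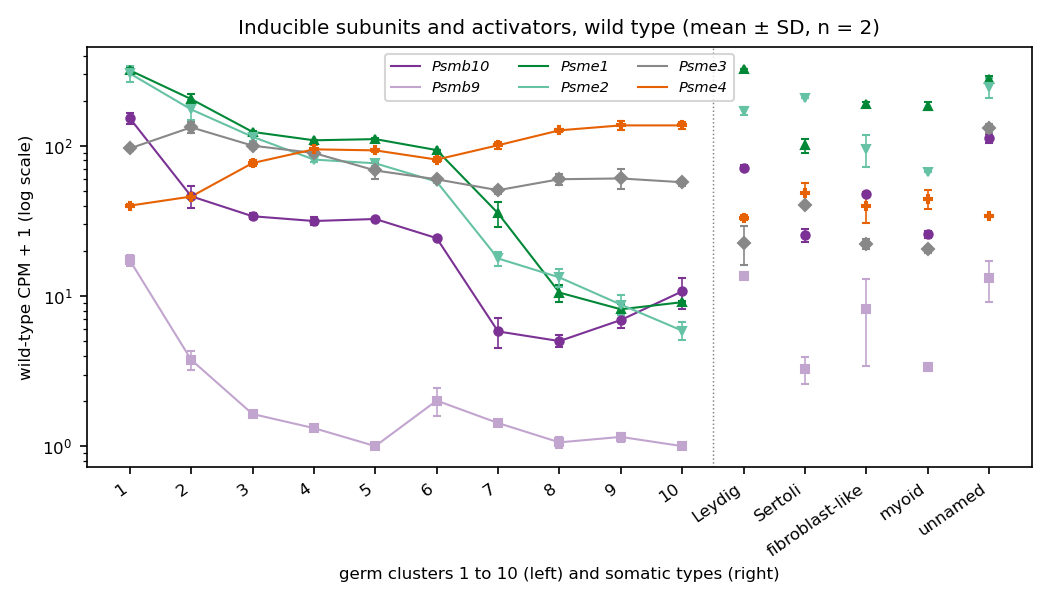
Wild-type CPM + 1 (log axis, mean ± SD, n = 2 libraries) of the inducible subunits *Psmb9* and *Psmb10* and the activators *Psme1* to *Psme4* in germ clusters 1 to 10, joined by lines, and in somatic types. *Psme1* and *Psme2* fall from 318 and 303 CPM in cluster 1 to under 10 CPM in cluster 9, while *Psme4* rises from 39.0 to 136 CPM.

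The inducible subunits as a share of all catalytic beta UMIs (*Psmb8*, *Psmb9* and *Psmb10* over their sum with *Psmb5*, *Psmb6* and *Psmb7*) summarised this. The share was 11.1% to 12.1% over the 4 libraries in cluster 1, 2.76% to 4.48% in clusters 2 to 5 and 0.570% to 1.73% in clusters 7 to 10. Cluster 6 lay between, with wild-type shares of 3.14% and 3.19% above *Meioc*-null shares of 1.99% and 2.20%. The genotypes were also apart, in the opposite order, in cluster 5 (3.04% and 3.10% against 4.04% and 4.48%) and cluster 9 (0.753% and 0.932% against 1.28% and 1.73%), each with an exact permutation p of 0.33, the smallest possible. Among somatic types it was 11.6% to 15.8% in fibroblast-like and 10.9% to 18.9% in Leydig-like cells, against 3.13% to 4.15% in Sertoli-like and 4.93% to 6.58% in myoid-like cells. *Psmb8* was at 21.4 to 44.0 CPM in Leydig-like and 16.4 to 30.5 CPM in fibroblast-like cells. The interstitium had been discarded during dissociation, and the Leydig-like group held 21 to 72 cells per library. Macrophage markers summed to 1.65 to 5.17 CPM in Leydig-like and 1.56 to 3.96 CPM in fibroblast-like cells, while endothelial markers in fibroblast-like cells summed to 177 to 481 CPM. Their part in the shares was not tested.

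Sertoli-like cells, which nurse the germ cells, had the highest level of all clusters for 2 members. Besides *Psma7*, this was *Psmd7*, a lid subunit, at 811, 617, 758 and 546 CPM. Its wild-type mean of 714 CPM there was 11.2-fold above its germ cell trough, in cluster 3. Its germ cell peak was 301 CPM, in cluster 1. The summed level of Sertoli-like cells, 7938 to 8952 CPM, was above that of myoid-like cells (4883 to 5566 CPM) and fibroblast-like cells (4759 to 5432 CPM) in every library. The Sertoli-like group joined a large cluster with a median of 2168 UMIs and a smaller one with 37245 UMIs.

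The promoters of these genes were examined for shared short motifs. RefSeq promoter windows of GRCm38.p6, from 250 bases before to 50 bases after the start, were at hand for 38 of the 45 members (41 windows). On either strand, TCCCGC, the letters of an E2F-type site, was found in 31.7% of the members' windows and in 20.0% of all 32851 windows. GAAANNGAA, part of an interferon response element, was found in 14.6% and 8.56%. TGACNNNGC, the core of the element bound by the proteasome regulators NFE2L1 and NFE2L2, was found in 14.6% and 12.4%. CCAAT was found in 34.1% and 37.4%. GAAANNGAA and TCCCGC do not overlap each other in the stretches below. The motifs were chosen with the levels known, and a match is not a binding site.

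Stretches are shown for *Psma7*, whose level fell before that of *Psma8* rose (the 250 bases before its RefSeq start, chr2:180042465-180042714, − strand), for *Psmb3*, which dipped most among the constitutive beta genes (chr11:97703184-97703398, + strand), for *Psmd12*, a lid gene with both TCCCGC and TGACNNNGC (chr11:107479278-107479483, + strand), and for *Psme1*, as a 30-base window just after its RefSeq start (chr14:55578498-55578527, + strand). RefSeq starts are not those of the GENCODE gene spans. That of *Psma7* lies 31 bases upstream, and those of *Psmb3*, *Psmd12* and *Psme1* lie 35, 44 and 371 bases downstream, so the stretches of *Psmb3* and *Psmd12* end before the GENCODE start and that of *Psme1* lies inside the gene. Capitals mark matches to the 4 motifs on either strand.
Psma7: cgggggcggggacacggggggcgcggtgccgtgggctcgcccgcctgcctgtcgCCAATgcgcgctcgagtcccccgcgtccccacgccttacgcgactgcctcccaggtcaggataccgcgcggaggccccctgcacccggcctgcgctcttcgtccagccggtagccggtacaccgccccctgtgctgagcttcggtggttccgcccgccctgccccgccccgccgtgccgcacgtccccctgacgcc
Psmb3: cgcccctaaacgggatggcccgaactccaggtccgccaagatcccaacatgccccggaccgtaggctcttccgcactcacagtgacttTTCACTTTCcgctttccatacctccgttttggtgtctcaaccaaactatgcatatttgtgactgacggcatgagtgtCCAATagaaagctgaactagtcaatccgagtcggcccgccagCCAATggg
Psmd12: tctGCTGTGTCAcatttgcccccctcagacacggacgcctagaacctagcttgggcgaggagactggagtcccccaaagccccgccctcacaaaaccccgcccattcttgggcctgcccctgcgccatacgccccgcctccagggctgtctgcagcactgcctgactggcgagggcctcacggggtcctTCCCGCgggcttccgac
Psme1: tgtgctTTCGCTTTCcctTCCCGCtgccca

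The study compared genotypes to find which transcripts depend on MEIOC. Here UMIs summed per library and cluster were compared with edgeR, and a gene was called at a Benjamini-Hochberg adjusted p under 0.05 over all genes tested in the cluster with an absolute log2 fold change (wild-type over *Meioc*-null) over 0.1. Testing was limited to genes detected in 25% or more of the cells of one genotype or the other. Genotype p-values rest on 2 pups each.

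In spermatogonia few proteasome genes were called between the genotypes. In clusters 1, 2, 3 and 4, 0 of 42, 41, 41 and 41 members tested were called by edgeR, beside 0.0238%, 0.0117%, 0.0133% and 0% of all genes. At an unadjusted p under 0.05 the counts were 0, 0, 0 and 1, beside 1.02%, 0.631%, 1.96% and 5.15% of all genes, and DESeq2 called 0 in each. With the replicate number as a block, *Psme2* was called in cluster 4 (log2 fold change −0.28, edgeR adjusted p = 0.0182, against 0.951 without it), 1 of 41 members beside 6.19% of all genes under that block. In cluster 5, 1 of 40 members (2.50%) was called against 1.82% of all genes (0.351% higher in wild type, 1.47% higher in *Meioc*-null). This was *Psme2*, at 73.5 and 77.7 CPM in the wild type against 105 and 120 CPM without *Meioc*, which did not overlap (log2 fold change −0.56, SE 0.12, edgeR adjusted p = 0.0120). The call was lost without wild-type replicate 1 (−0.47), without *Meioc*-null replicate 2 (−0.40) and with DESeq2, where the value was −0.55.

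The first cluster in which edgeR called *Psma8* between genotypes was cluster 6. In clusters 2, 3 and 4 its libraries did not overlap either, with the wild type higher, but edgeR made no call there (log2 fold changes 0.26, 0.19 and 0.38) and the groups overlapped once the myoid-like level was subtracted. In cluster 6 it was at 30.0 and 27.0 CPM in the wild type against 11.6 and 12.9 CPM without *Meioc*, and the groups were well apart (log2 fold change 1.28, SE 0.17, edgeR adjusted p = 0.000933). It passed the detection filter there only through the wild type, with a UMI in 27.7% and 23.7% of cells against 12.1% and 14.9%, and without wild-type replicate 1 it fell below the filter. With no filter it was called as well (log2 fold change 1.23, edgeR adjusted p = 4.29e-10). With the myoid-like level of the same library subtracted, the values were 20.1 and 22.3 CPM against 9.18 and 9.83 CPM. In cluster 7, where it was too seldom detected to be tested, all 4 libraries lay between 7.02 and 10.5 CPM and the groups overlapped. With the myoid-like level subtracted, the wild type had 0.564 and 2.27 CPM there and *Meioc*-null had 6.59 and 4.53 CPM. In cluster 8 it was at 69.3 and 56.5 against 45.2 and 51.9 CPM, groups that only just separated (log2 fold change 0.35, SE 0.14, edgeR adjusted p = 0.0263). That call was lost without wild-type replicate 1 (0.25) or *Meioc*-null replicate 1 (0.23).

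In cluster 9 the difference was largest among the clusters tested. *Psma8* was at 235 and 215 CPM in the wild type against 68.1 and 74.3 CPM without *Meioc* (log2 fold change 1.73, SE 0.13, edgeR adjusted p = 1.01e-12). In undifferentiated cluster 1, *Psma8* had a log2 fold change of 0.03 (SE 0.12).

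*Psma7* went the other way in cluster 9, at 33.2 and 28.0 CPM in the wild type against 51.3 and 64.5 CPM without *Meioc*, without overlap (log2 fold change −0.87, SE 0.18, edgeR adjusted p = 9.74e-05). The call was lost when likely doublets were kept (−0.23). In cluster 8 it was at 28.1 and 20.8 against 39.1 and 23.9 CPM, where the groups overlapped and no call was made, although it was called without wild-type replicate 1 (−0.53) or *Meioc*-null replicate 2 (−0.69). In cluster 7 it was called higher in the wild type (log2 fold change 0.42, SE 0.15, edgeR adjusted p = 0.0322), although 68.0 CPM in wild-type replicate 2 was below 70.6 CPM in *Meioc*-null replicate 1. That call was lost without wild-type replicate 1 (0.27), without *Meioc*-null replicate 2 (0.26), with DESeq2 (0.44, adjusted p = 0.0574), with doublets kept (0.42, 0.0530 by edgeR) and with 15 nearest cells (0.39, 0.0512 by edgeR). With the replicate number as a block, *Psma7* was also called in cluster 6 (log2 fold change 0.22, edgeR adjusted p = 0.00731, against 0.103 without it).

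The *Psma8* share of the pair went both ways. It was 12.3% and 11.1% in wild-type against 5.53% and 6.54% in *Meioc*-null cluster 6, and 71.1% and 73.1% against 53.6% and 68.5% in cluster 8. In cluster 9 it was 87.6% and 88.5% against 57.0% and 53.5%, a difference of 32.8 percentage points. In cluster 7 the order was the opposite, 10.6% and 9.36% against 11.3% and 12.9%, a difference of −2.09 points that became −0.961 with doublets kept. A mitochondrial limit of 5%, which left 8 to 13 cells per library in cluster 7, turned that difference to 3.67 points and reduced those of clusters 6 and 9 to 0.429 and 21.3 points. The groups did not overlap in any of these clusters under the main settings, and the exact two-sided permutation test over 4 libraries gave p = 0.33, the smallest it allows. *Psma7* plus *Psma8* came to 268 and 243 CPM in the wild type against 119 and 139 CPM without *Meioc* in cluster 9 (exact permutation p = 0.33).

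Cells placed in clusters 8 and 9 differed in more than these genes. Cluster 9 held 274 and 679 wild-type but 67 and 89 *Meioc*-null cells. There the differentiating spermatogonia markers summed to 227 and 215 CPM in the wild type against 1066 and 974 CPM without *Meioc*. The pachytene markers summed to 926 and 802 CPM against 206 and 225 CPM. In cluster 8 the differentiating markers summed to 248 and 223 against 620 and 598 CPM, and in cluster 7 to 519 and 472 against 646 and 615 CPM. Early spermatocyte markers were higher without *Meioc* as well, at 4462 and 4348 against 5267 and 5180 CPM in cluster 7. They summed to 5056 and 4634 against 6346 and 6067 CPM in cluster 8, and the groups overlapped in cluster 9. Undifferentiated markers in cluster 9 were lower without *Meioc* (23.8 and 18.4 against 3.54 and 4.61 CPM). Genotype and position within the cluster cannot be told apart here for any gene named in clusters 7 to 9. Cluster 6 held 484 and 482 wild-type but 1195 and 948 *Meioc*-null cells. Its differentiating marker sums overlapped between genotypes (910 and 869 against 871 and 836 CPM), as did its early spermatocyte marker sums. Whether the genotypes differ in position within cluster 6 was not tested, so the same limit holds for genes named there, *Psma8* included.

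Over all members tested, *Psma7* and *Psma8* included, calls became more frequent with stage, as they did over all genes. The members' share was the lower in each of clusters 6 to 9 under the main settings. In cluster 6, 6 of 39 members (15.4%) were called, against 22.0% of all genes. In cluster 7 it was 8 of 36 (22.2%) against 42.3%, in cluster 8 it was 13 of 38 (34.2%) against 56.3%, and in cluster 9 it was 17 of 39 (43.6%) against 62.7%. With the replicate number as a block, 16 members (41.0%) were called in cluster 6 and 18 (50%) in cluster 7, beside 45.7% and 61.7% of all genes under the same block. The median log2 fold change of the members was 0.10, 0.00, −0.01 and −0.12 in clusters 6 to 9, beside medians of all genes within 0.01 of 0.

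In cluster 6, 4 members were higher in the wild type (9.09% of all genes were) and 2 in *Meioc*-null (12.9%). Besides *Psma8*, these were the alpha subunit *Psma5* (log2 fold change 0.33), the lid subunit *Psmd8* (0.33) and *Psmb3* (0.35) on one side, and *Psmd5* (−0.50) and the lid subunit *Psmd3* (−0.50) on the other, with edgeR adjusted p from 0.00900 to 0.0385. *Psmd5* was at 55.2 CPM on average in the wild type and 80.9 CPM in *Meioc*-null. With DESeq2 the calls of *Psma5* (0.34), *Psmb3* (0.36), *Psmd8* (0.34) and *Psmd3* (−0.49) were lost. With no detection filter those of *Psma5* (0.29), *Psmb3* (0.31) and *Psmd8* (0.29) were lost. *Psma5* (0.32) and *Psmd3* (−0.38) were also lost with doublets kept, and *Psmb3* (0.32) with 15 nearest cells. Without wild-type replicate 1, 3 members (7.89%) were called here beside 13.5% of all genes, the calls of *Psmb3* (0.29) and *Psmd8* (0.28) being lost and *Psma8* no longer being tested. Without *Meioc*-null replicate 1, 2 (5.13%) were called beside 17.0% of all genes, with *Psma5* (0.23), *Psmb3* (0.26), *Psmd8* (0.24) and *Psmd3* (−0.36) lost, and without wild-type replicate 2 *Psma5* (0.26) and *Psmd3* (−0.34) were lost.

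In cluster 7, 5 members were higher in the wild type (19.4% of all genes) and 3 in *Meioc*-null (22.9%). The first were *Psma7*, the ATPases *Psmc2* (0.38) and *Psmc4* (0.41), *Psmd8* (0.53) and *Psmd12* (0.33). *Psmd8* was at 196 and 191 CPM in the wild type against 135 and 146 CPM without *Meioc*. The others were *Psma4* (−0.61), *Psma2* (−0.40) and *Psmd5* (−0.69), with edgeR adjusted p from 0.000211 to 0.0150. *Psma4* was at 145 and 129 CPM in the wild type against 227 and 212 CPM without *Meioc*. *Psma2* and *Psmd12* each overlap another gene on the same strand, so their counts may be split. Without *Meioc*-null replicate 1, 5 members (13.5%) were called in this cluster beside 29.2% of all genes, *Psmc2* (0.31), *Psmd12* (0.28) and *Psma2* (−0.38) being lost. *Psmd12* (0.28) and *Psma2* (−0.25) were also lost without wild-type replicate 2, and *Psmc4* (0.29) without wild-type replicate 1. With no detection filter *Psmc2* (0.33) and *Psmd12* (0.29) lost their calls.

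In cluster 8, 7 members were higher in the wild type (27.7% of all genes) and 6 in *Meioc*-null (28.6%). *Psmd9* was at 65.0 and 61.9 CPM in the wild type against 35.7 and 38.1 CPM without *Meioc*, clearly apart (log2 fold change 0.77, SE 0.14, edgeR adjusted p = 1.09e-06). The others of that direction were *Psma8*, *Psmc2* (0.41), *Psmd6* (0.50), *Psmd13* (0.37), the activator *Psme3* (0.51) and the inhibitor *Psmf1* (0.61). *Psmb3* was at 53.5 and 40.9 CPM in the wild type against 105 and 84.9 CPM without *Meioc* (log2 fold change −1.03, SE 0.13, edgeR adjusted p = 3.82e-11). *Psmd5* (−0.53), *Psmd7* (−0.46), *Psma4* (−0.47), *Psmd4* (−0.34), the ubiquitin receptor of the regulatory particle, and *Psma3* (−0.31) were also higher in *Meioc*-null. Without wild-type replicate 2 the calls of *Psmf1* (0.54), *Psmd5* (−0.47), *Psmd4* (−0.32) and *Psma3* (−0.27) were lost, without *Meioc*-null replicate 2 those of *Psmf1* (0.43) and *Psma3* (−0.24), and without wild-type replicate 1 that of *Psma3* (−0.34). With no detection filter those of *Psmd13* (0.36), *Psmd4* (−0.35) and *Psma3* (−0.32) were lost, and *Psma3* (−0.30) also with DESeq2. *Psmd5* passed the filter only through *Meioc*-null, where 37.5% of cells had a UMI against 23.1%.

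In cluster 9, 12 of 39 members (30.8%) were higher in *Meioc*-null, near the 31.3% of all genes, and 5 (12.8%) in the wild type, against 31.4% of all genes. With no detection filter, 7 members were higher in *Meioc*-null and 6 in the wild type of 44 tested, beside 13.0% and 17.2% of all genes. *Psmb3* was at 122 and 116 CPM in the wild type against 284 and 284 CPM without *Meioc* (log2 fold change −1.16, SE 0.11, edgeR adjusted p = 2.45e-10). The X-linked *Psmd10* was at 22.6 and 31.8 CPM in the wild type against 78.8 and 72.0 CPM without *Meioc* (log2 fold change −1.33, SE 0.18, edgeR adjusted p = 2.87e-07). Neither pair of groups overlapped. *Psmd5* (−1.08), *Psme2* (−1.26), *Psmc6* (−0.56), *Psma4* (−0.49) and *Psmc5* (−0.42) were called in the same direction, as was *Psma7*. The remaining 4 (*Psma1*, *Psmd4*, *Psmd7* and *Psmd14*) had log2 fold changes from −0.28 to −0.76. The call of *Psmd14* was lost with DESeq2 (−0.29), with no detection filter (−0.12), without wild-type replicate 1 (−0.18) and without *Meioc*-null replicate 2 (−0.20). That of *Psmd4* was lost with DESeq2 (−0.35), with no filter (−0.18), without wild-type replicate 1 (−0.31) and without *Meioc*-null replicate 1 (−0.27). *Psma1* lost its call with no filter (−0.27). Higher in the wild type, besides *Psma8*, were *Psmd9* (0.76), *Psme3* (0.66), *Psma5* (0.50) and *Psmd6* (0.27). *Psmd6* lost its call when any 1 of the 4 libraries was left out (0.24 to 0.32), *Psma5* without *Meioc*-null replicate 1 (0.32), and *Psmc5* without wild-type replicate 2 (−0.37) or *Meioc*-null replicate 2 (−0.31). *Psmc5* was also lost with DESeq2 (−0.42), with no detection filter (−0.26) and with doublets kept (−0.28), and *Psma4* with no filter (−0.33). *Psmd6* was lost as well with DESeq2 (0.27) and with doublets kept (0.23). *Psme2* passed the filter only through *Meioc*-null, where 27.6% of cells had a UMI against 10.6%, and lost its call when likely doublets were kept (−0.39).

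**Figure D5:**
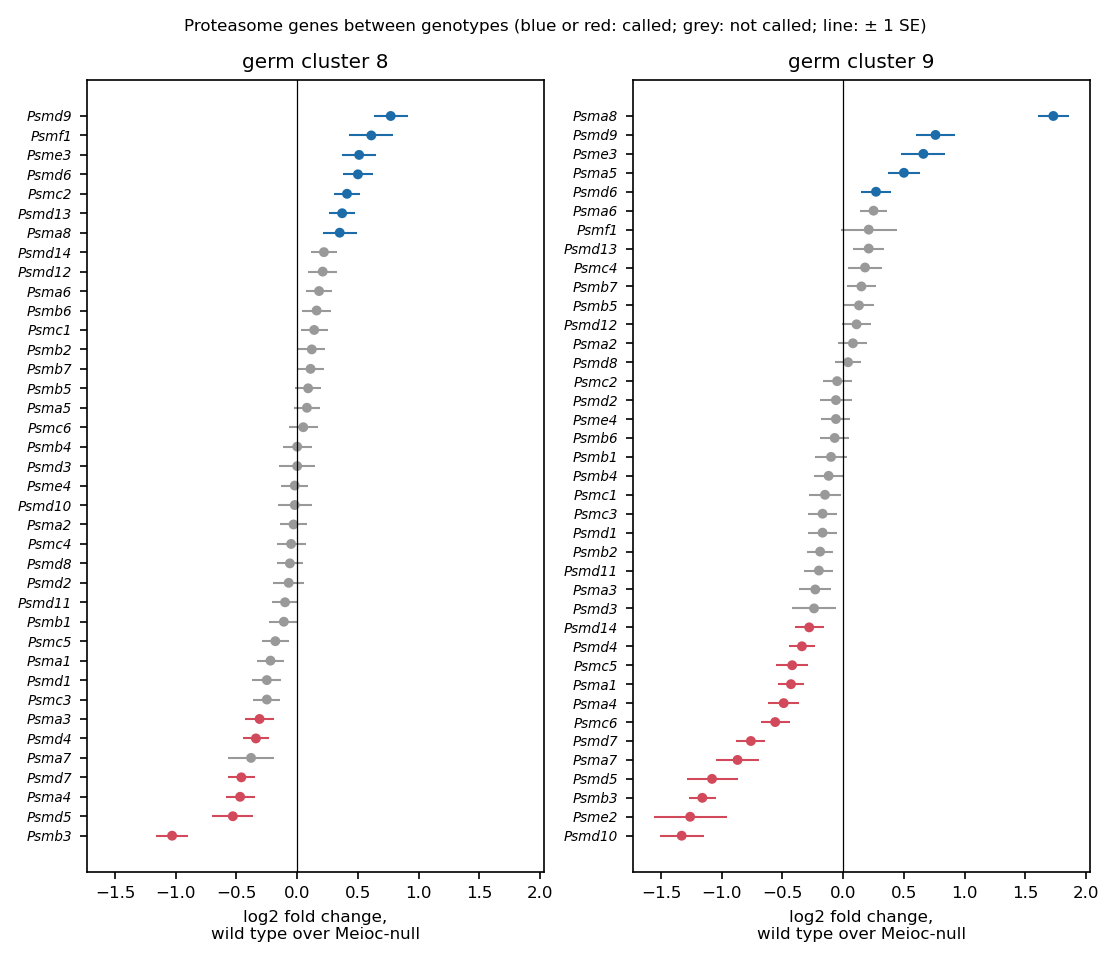
Log2 fold change (wild type over *Meioc*-null) of each proteasome gene tested in germ clusters 8 (left) and 9 (right), with a line of ± 1 SE, blue where called higher in wild type, red where called higher in *Meioc*-null and grey where not called. *Psma8* stands alone at 1.73 on the right of cluster 9, opposite *Psmb3* at −1.16 and *Psmd10* at −1.33.

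Summed over all members, cluster 9 held 7205 and 6872 CPM in the wild type against 8308 and 7996 CPM without *Meioc*, without overlap (exact permutation p = 0.33, the smallest possible). Without *Psma8* the gap in the core rings was 3375 and 3212 against 3898 and 3897 CPM. In cluster 5 the order was the opposite, at 9137 and 8771 against 8235 and 8571 CPM (exact permutation p = 0.33), and in clusters 6, 7 and 8 the sums of the 2 genotypes overlapped.

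Somatic cells gave 0 calls among 37 members tested in Sertoli-like, 36 in fibroblast-like, 37 in myoid-like and 35 in unnamed cells, beside 0.245%, 0.0226%, 0.0762% and 0% of all genes. There were 0 members at an unadjusted edgeR p under 0.05, and DESeq2 called 0. *Psma8* was below the detection filter in these types. With no filter it was called higher in the wild type in Sertoli-like (log2 fold change 1.43, SE 0.37, edgeR adjusted p = 0.0165) and myoid-like cells (1.40, SE 0.33, 0.00809), 1 member of 44 and 1 of 45 beside 0.785% and 0.397% of all genes under that setting, at the background levels given above. *Psmb9* was then called in the unnamed cells (−1.92), 1 of 44 members beside 0.773% of all genes. It had a UMI in 3.20% and 4.75% of wild-type cells there against 2.29% and 18.2% of *Meioc*-null cells. Only *Meioc*-null replicate 2, the library with the high macrophage marker sum, was above the wild type. Leydig-like cells were too few to test. The largest *Psma7* log2 fold change among these types was −0.10, in the unnamed cells, with an SE of 0.18.

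Other genes of the pathway were taken from a list of 30, of which 28 were in the tables. edgeR gave 0 calls among them in clusters 1 to 4 and in the somatic types tested, where 1 gene, in the unnamed cells, had an unadjusted p under 0.05. There was 1 call among 27 tested in cluster 5, beside 1.82% of all genes, and 3 among 27 in cluster 6, beside 22.0%. Clusters 7, 8 and 9 gave 6 calls among 26, 16 among 25 and 15 among 27, where 42.3%, 56.3% and 62.7% of all genes were called. In cluster 8, 10 were higher in the wild type and 6 in *Meioc*-null, where 27.7% and 28.6% of all genes were. *Nfe2l1*, a transcription factor that drives proteasome genes, was at 81.7 and 72.3 CPM in the wild type against 224 and 170 CPM without *Meioc* (log2 fold change −1.36, SE 0.11, edgeR adjusted p = 1.91e-20). Its relative *Nfe2l2*, of the oxidative stress response, was at 25.7 and 20.0 against 52.3 and 53.9 CPM (−1.26), and it passed the detection filter only through *Meioc*-null, with 44.9% of cells against 18.8%. Neither overlapped between genotypes. The ubiquitin gene *Ubb* (−0.70) was called in the same direction. The assembly chaperones *Psmg3* (0.88) and *Psmg4* (0.50) and the proteasome adaptor *Ecpas* (0.54) were higher in the wild type. *Psmg3* was at 57.2 and 54.6 against 27.7 and 32.3 CPM.

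The interferon and class I list of 9 genes did not move as 1 group along the stages. *Irf1*, an interferon-regulated transcription factor, was at 54.5 to 59.9 CPM in cluster 1 and at most 2.78 CPM in cluster 5, the stages over which *Psmb9*, *Psmb10*, *Psme1* and *Psme2* declined. *H2-K1*, a class I antigen-presenting molecule, went the other way, from 19.1 and 11.1 CPM in wild-type cluster 1 to 940 and 817 CPM in cluster 8. Of the few list genes detected often enough to be tested, 3 of 4 were called in cluster 6 and 1 of 3 in cluster 7, while clusters 8 and 9 each called 3 of 3, beside 22.0%, 42.3%, 56.3% and 62.7% of all genes in these 4 clusters. *H2-D1* (−1.32), *H2-K1* (−1.05) and *B2m* (−0.68), all parts of the class I complex, were higher in *Meioc*-null cluster 8, where *H2-K1* was at 1856 and 1790 CPM. *B2m* was tested there only through *Meioc*-null, with a UMI in 36.2% of cells against 21.2%.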

How the data were processed

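Testes of 2 wild-type and 2 *Meioc*-null P15 pups were profiled with 10x Genomics 3′ chemistry. Per the labels and the study's methods, the authors aligned reads with Cell Ranger 4.0.0 to mm10 (GRCm38) and deposited raw UMI counts per gene and barcode, unfiltered for quality, with no normalization. The authors' further steps used Seurat and gave *Meioc*-null cells names up to pachytene. They also named a mutant-only cluster of *Meioc*-null spermatocytes. Here names were rebuilt, and *Meioc*-null cells were placed by their 30 nearest wild-type cells. No mutant-only cluster could form that way, so such cells lie within the clusters compared between genotypes.

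Barcodes with more than 1000 genes and under 10% mitochondrial UMIs were kept. Doublets were scored per library and the top 0.8% per 1000 barcodes removed. Wild-type cells were clustered in scanpy 1.11.5 (2000 variable genes, 30 components, 20 neighbours, Leiden resolution 1.0, germ cells again at 0.3), leaving out the proteasome genes. A cluster was named from at least 3 detected markers. For the 10 germ clusters the second-best score also had to be at most 0.75 of the best. That limit was not applied to somatic types, where the fibroblast-like cluster scored 1.00 beside 0.766 for vascular endothelium. UMI counts were summed per library and cluster with at least 50 cells. Genes detected in 25% or more of the cells of one genotype or the other entered edgeR 4.0.16 (TMM, quasi-likelihood test, Benjamini-Hochberg adjustment) in R 4.3.3, with calls at adjusted p under 0.05 and an absolute log2 fold change over 0.1. DESeq2 1.42.0 was an alternative. The tests were checked on simulated data.

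Libraries held 158291903 to 190455307 UMIs. Sampling intervals cover counting error only. Replicate numbers mark batches, each a littermate pair by the labels, and the deviations of same-numbered libraries from their group means had Pearson r of 0.259 to 0.648 across genes in germ clusters 1 to 9. The genes named are *Psma7* and *Psma8* throughout, the widest gene of each role by stage, and every member called under the main settings. Genes beyond these were chosen after their values were seen. The members, lists and tests were chosen with earlier results of these data known.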

Additional observations from a re-analysis of the deposited data

Results flagged for a closer look

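*Psma7* and *Psmb3* were called in opposite directions in different germ clusters, and the difference between clusters was not tested. *Psma7* had a log2 fold change (wild-type over *Meioc*-null) of 0.42 in cluster 7 and −0.87 in cluster 9. *Psmb3* had 0.35 in cluster 6, −1.03 in cluster 8 and −1.16 in cluster 9. In cluster 6 *Psmb3* was at 115 and 99.9 CPM in the wild type against 85.7 and 89.6 CPM without *Meioc*. That call was lost with DESeq2 (0.36), with no detection filter (0.31) and with 15 nearest cells (0.32). It was also lost without wild-type replicate 1 (0.29) or *Meioc*-null replicate 1 (0.26). The *Psma7* calls in clusters 7 and 9 were lost under the alternatives given above.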

How the results depend on the processing

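Between genotypes, 75 of 79 alternatives for *Psma8* kept its side of the threshold, including clusters where it was not called. For *Psma7* in each cluster tested and the other members where they were called, 465 of 538 did, 70 lost the call and 3 gained it. Gains by members other than *Psma7* that were not called under the main settings are not part of that count. Direction was not always kept where no call was made, as for *Psma8* in cluster 1 (0.03, and −0.05 to 0.11 with 1 library left out). *Psma8* in cluster 8 lost its call with DESeq2 (log2 fold change 0.36) and without the detection filter (0.33), and gave 0.23 to 0.49 with 1 library left out.

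With the replicate block, members called rose to 1 in cluster 4 (beside 6.19% of all genes), 16 in cluster 6 (45.7%) and 18 in cluster 7 (61.7%). They also rose to 18 in cluster 8 (63.3%) and 21 in cluster 9 (69.2%). *Psma7* in cluster 6 and *Psme2* in cluster 4 were among those that gained a call, and no call of a member was lost under the block. With no detection filter, *Psmb10* (log2 fold change 0.65) and *Psmd7* (−0.33) gained a call in cluster 6. So did *Psme1* (−1.13) in cluster 8 and *Psma6* (0.40) in cluster 9. Under that setting 10.8%, 23.1% and 30.3% of all genes were called in clusters 6, 8 and 9. DESeq2 called 0 in cluster 5 (beside 0.802% of all genes) and 2 in cluster 6 (15.1%). Leaving out 1 library gave 0 to 1 calls in cluster 5 (0.860 to 2.04% of all genes), 2 to 8 in cluster 6 (13.5 to 23.6%) and 5 to 9 in cluster 7 (29.2 to 38.4%). Without the detection filter 1 member was called in each of Sertoli-like, myoid-like and unnamed cells, beside 0.785%, 0.397% and 0.773% of all genes.

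A mitochondrial limit of 5% left 1417 to 1965 cells per library, with 2 and 3 *Meioc*-null cells in cluster 9, so clusters 1, 2 and 6 to 9 could not be fitted. It gave 0 calls in cluster 5 (0.269% of all genes). The *Psma8* share difference (wild-type minus *Meioc*-null, percentage points) became 1.44, −1.42, 1.73, 0.429, 3.67 and 21.3 in clusters 1, 2, 4, 6, 7 and 9 and 1.72 in Sertoli-like cells, reversing in clusters 2 and 7. The immunoproteasome share difference became 0.792, 0.108, −1.58, 1.23, −0.617, −0.808 and −1.43 in clusters 1 and 4 to 9, changing sign in clusters 1, 4 and 7. Summed CPM differences became −277, −184, 317, 177 and −60.3 in clusters 1, 3, 6, 7 and 9 and 1893 in Sertoli-like cells, changing sign in clusters 1, 3 and 7. Keeping doublets gave *Psma8* share differences of −0.961 in cluster 7, 27.4 in cluster 9 and 1.00 in Sertoli-like cells, and an immunoproteasome difference of −1.25 there. With 15 nearest cells the latter was 0.932 in cluster 6. Subtracting the myoid-like level, an alternative chosen after seeing the data, changed the sign of the *Psma8* difference in clusters 1 (−4.11 CPM), 3 (−2.43), 4 (−0.893) and 7 (−4.14). The causes were not tested.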
